A study of Homo sapiens with 6 samples.

Results

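Mitosis and spindle genes were followed in human fibroblasts on day 8 of reprogramming. They are 52 of the 27788 genes in the table, taken as the rows of 52 listed symbols: mitotic cyclins and kinases, the spindle checkpoint, kinetochore proteins, kinesins, and factors of spindle assembly, anaphase, cytokinesis and chromosome condensation. The members were listed by their known roles, but with earlier results of these data known, so counts over the list are descriptions. All 52 symbols were found.

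The cells were BJ, an established line of human foreskin fibroblasts, and all groups carried lentivirus with the O2S and K2M polycistronic constructs, which express OCT4, SOX2, KLF4 and MYC. They grew in medium with 10% fetal bovine serum for the first 5 days, were moved to Matrigel at the passage on day 4, and were in medium for human embryonic stem cells until they were sorted on day 8 by the surface proteins CD13 and CD201. The double-negative group lacked both proteins, the CD201-only group was negative for CD13 and positive for CD201, and the double-positive group carried both. Each group has 2 poly-A RNA libraries, all from 1 cell line at 1 time, and all 3 groups hold infected cells. Nothing in the labels says that the replicates came from separate cultures, so p-values measure the spread between these libraries, which may be technical. Levels are FPKM, fragments scaled by transcript length and library size. Log2 changes are differences on log2(FPKM + 1) from limma, with a standard error (SE) and a p-value adjusted over all 12210 genes tested, which understate the change of genes near 1 FPKM. Folds are ratios of mean FPKM.

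Mitosis begins when CDK1, bound to a B-type cyclin, is activated by CDC25 phosphatases. Kinetochores on the centromeres then catch microtubules, and a checkpoint holds back the anaphase-promoting complex until every chromosome is attached. Transcripts of these proteins are made mainly in G2 and mitosis and are few in resting cells, so that their level in a population is used as a sign of how many cells are dividing, and pluripotent stem cells are known for a fast cycle with a short G1 phase. In bulk RNA, fewer dividing cells and less RNA of these genes per cell cannot be told apart.

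The summed FPKM of a library lay between 489152 and 521352, and 11983 to 12168 genes reached 1 FPKM. Relative depth, read from the steps between low values, was 0.727 to 1. ANPEP, which encodes CD13, averaged 35.96 ± 0.347 FPKM in double-negative cells, 28.9 ± 0.216 FPKM in CD201-only cells and 155.3 ± 3.65 FPKM in double-positive cells (SD, n = 2 each). PROCR, which encodes CD201, averaged 17.3 ± 0.948 FPKM in double-negative cells, 47.4 ± 2.34 FPKM in CD201-only cells and 51.9 ± 0.842 FPKM in double-positive cells. Of 10 fibroblast markers, 10 were above 1 FPKM, and their summed level was 4226 and 4227 FPKM in double-negative cells, 3779 and 3759 in CD201-only cells, and 8526 and 8422 in double-positive cells. The sum of 6 epithelial markers was 3091 and 3079 FPKM (double-negative), 4098 and 4029 FPKM (CD201-only) and 2111 and 2042 FPKM (double-positive). The sum of 6 pluripotency markers, POU5F1 and SOX2 of the constructs among them, was 1735 and 1734 FPKM (double-negative), 1064 and 1023 FPKM (CD201-only) and 1015 and 988.3 FPKM (double-positive). The 4 endothelial markers summed to 14.1 to 27.1 FPKM. These marker sums differed between the groups. The epithelial sum ran in the order of the summed mitotic genes below, and the fibroblast sum ran in the reverse order. The pluripotency sum was highest in double-negative cells, and that of CD201-only cells was near that of double-positive cells. The part of these differences in the results below was not tested.

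Mitotic transcripts were higher in double-negative and CD201-only cells than in the cells that carried both surface proteins. The 52 genes together held 1547 and 1534 FPKM in double-negative cells, 1605 and 1610 in CD201-only cells, and 1069 and 1107 in double-positive cells. As a share of each library's sum this is 0.2996% to 0.302% (double-negative), 0.308% to 0.309% (CD201-only) and 0.218% to 0.226% (double-positive). The double-positive libraries were the lowest and the other groups did not overlap with them. The plot of log2 change by gene shows this member by member. In double-negative against double-positive cells, 48 of the 49 tested members were called higher at an adjusted p under 0.05, where 42.1% of all 12210 tested genes were. CDC25B was called lower, where 24.5% of all genes were. In CD201-only against double-positive cells 48 members were again called higher, against 35.8% of all genes, and 0 were called lower, against 22.9%, while CDC25B was not called. The comparisons share the double-positive libraries, so they are not independent of each other. Over all 52 members the median log2 change was 0.52 in double-negative and 0.56 in CD201-only cells against double-positive cells, with median folds of 1.52 (double-negative) and 1.59 (CD201-only). The median of all tested genes was 0.11 (double-negative) and 0.08 (CD201-only). In double-negative cells the SD of log2 changes over the 52 members was 0.25, beside 0.55 over all tested genes, and in CD201-only cells it was 0.19, beside 0.50.

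**Figure D1:**
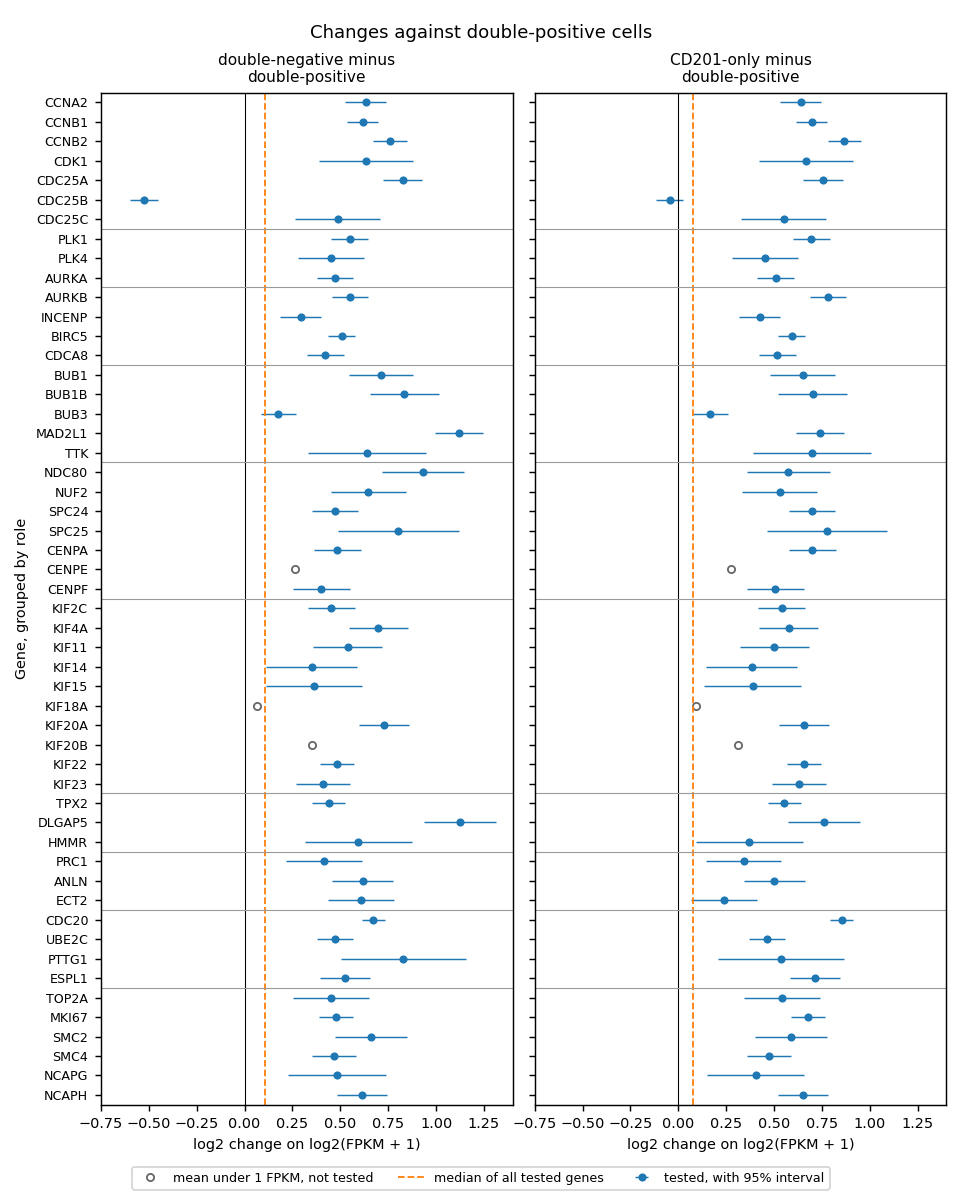
Log2 change of each of the 52 genes, grouped by role from cyclins at the top to condensin at the bottom, in double-negative (left) and CD201-only cells (right) minus double-positive cells, with 95% intervals; open points were under the minimum of 1 FPKM and not tested, and the dashed line is the median of all tested genes. In both panels 51 of 52 points lie above 0, and CDC25B, at -0.53 on the left, is the exception. Over all tested genes the quartiles of the log2 change were -0.16 and 0.34 (left) and -0.16 and 0.27 (right).

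The 3 genes under a mean of 1 FPKM were CENPE, KIF18A and KIF20B, and their levels are given with their roles below. When the libraries were rescaled by median ratios, the median of all genes in double-negative minus double-positive cells moved from 0.11 to 0.0035 and calls over all genes split into 3649 higher and 3899 lower, in place of 5136 and 2994. Under that scaling 47 members were still higher and BUB3 was not called (adjusted p = 0.268, limma). In CD201-only minus double-positive cells the split became 3228 higher and 3481 lower, in place of 4370 and 2795, with 45 members higher and CDC25B lower.

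Promoters of the listed genes were described as well, and whether their letters had a part in the changes was not tested. A pair of elements is known in promoters of genes of late cell cycle: the CHR element, bound by the LIN54 subunit of the DREAM and MYB-MuvB complexes, and the CCAAT box, bound by NF-Y. Windows from 250 bases before to 50 bases after an annotated start were matched by symbol in RefSeq (GRCh38.p14), and 46 of the 52 members had at least 1. The members AURKA, BIRC5, BUB3, TPX2, TTK and UBE2C had none. The CHR letters TTTGAA or TTCGAA, read on both strands, were in a window of 36 of 46 members (78.3%), against 14.8% of 9439 tested genes and 19.5% of all genes with a window. The letters CCAAT on either strand were in 36 of 46 members (78.3%), against 43.3% of tested genes and 39.7% of all. Both stood in 1 window in 27 members (58.7%), against 6.24% of tested genes and 7.85% of all. A match describes the letters only, and windows of this length hold such short words by chance. The following stretches run from base -120 to base -1 before the start on the gene's strand, 5′ to 3′, with CHR and CCAAT letters in capitals (TTCAAA and ATTGG are the same words on the other strand). They are shown for the gene with the largest change in CD201-only cells (CCNB2), for a pair of abundant genes (PLK1 and CDC20), for the proliferation marker MKI67, for the genes with the largest changes in double-negative cells (DLGAP5, then MAD2L1), and for the 1 gene that fell (CDC25B).
CCNB2: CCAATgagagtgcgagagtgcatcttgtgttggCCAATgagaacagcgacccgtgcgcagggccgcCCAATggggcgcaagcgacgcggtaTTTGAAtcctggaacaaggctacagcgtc
PLK1: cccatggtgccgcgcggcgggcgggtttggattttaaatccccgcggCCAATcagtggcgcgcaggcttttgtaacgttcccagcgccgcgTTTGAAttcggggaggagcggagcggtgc
CDC20: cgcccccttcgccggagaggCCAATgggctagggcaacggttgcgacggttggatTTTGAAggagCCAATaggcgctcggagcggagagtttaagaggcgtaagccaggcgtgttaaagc
MKI67: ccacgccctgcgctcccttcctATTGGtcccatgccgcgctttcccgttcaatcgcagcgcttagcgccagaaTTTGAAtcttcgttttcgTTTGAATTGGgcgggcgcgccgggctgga
DLGAP5: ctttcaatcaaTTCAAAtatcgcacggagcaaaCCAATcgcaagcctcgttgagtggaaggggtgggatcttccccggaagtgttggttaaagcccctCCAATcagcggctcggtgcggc
MAD2L1: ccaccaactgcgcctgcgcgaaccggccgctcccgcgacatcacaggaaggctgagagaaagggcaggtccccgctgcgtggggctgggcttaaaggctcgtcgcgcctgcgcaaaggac
CDC25B: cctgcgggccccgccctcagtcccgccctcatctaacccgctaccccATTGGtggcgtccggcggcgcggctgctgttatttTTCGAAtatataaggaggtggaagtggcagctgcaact
These lie at chr15:59105026-59105145 (plus strand), chr16:23678769-23678888 (plus strand), chr1:43358861-43358980 (plus strand), chr10:128126424-128126543 (minus strand), chr14:55191586-55191705 (minus strand), chr4:120066849-120066968 (minus strand) and chr20:3796190-3796309 (plus strand). The stretch of MAD2L1 holds neither word, and its window has a CHR match that begins at base 24 and a CCAAT match at base -229. In MKI67 the second CHR word shares a base with a CCAAT word. CDC25B has 4 annotated starts. The stretch shown is that of the third, the only 1 of the 4 windows with CHR letters, and it also has a CCAAT word.

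CHR words lay nearer the start in members than in tested genes, and the positions of CCAAT words differed less. The members' CHR matches began at a median of -27.5 bases from the start (quartiles -62.5 and -3), against -133 (-196 and -39.8) in tested genes. A match that began between -50 and -26 was in 21.3% of the members' 61 windows and 0.974% of the 13764 windows of tested genes. The members' CCAAT matches had a median of -85 (quartiles -111 and -55), against -97 (-161 and -58) in tested genes. Between -75 and -51 they were in 37.7% of the members' windows and 9.41% of those of tested genes. Of the 26 DNA replication genes, which rise earlier in the cycle, 2 of 23 with a window had CHR letters (8.70%) and 14 had CCAAT letters (60.9%). Members without CHR letters were CCNA2, CCNB1, CDC25A, AURKB, SPC24, CENPE, KIF2C, KIF20A, PTTG1 and NCAPH, of which CENPE and KIF2C had neither word. The 36 members with CHR letters had a median log2 change of 0.50 in double-negative and 0.55 in CD201-only cells against double-positive cells, and the 10 without had 0.61 (double-negative) and 0.65 (CD201-only). The 36 with CCAAT letters had 0.54 (double-negative) and 0.64 (CD201-only), the 10 without had 0.55 (double-negative) and 0.52 (CD201-only), and the 2 with neither word had 0.36 (double-negative) and 0.41 (CD201-only).

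**Figure D2:**
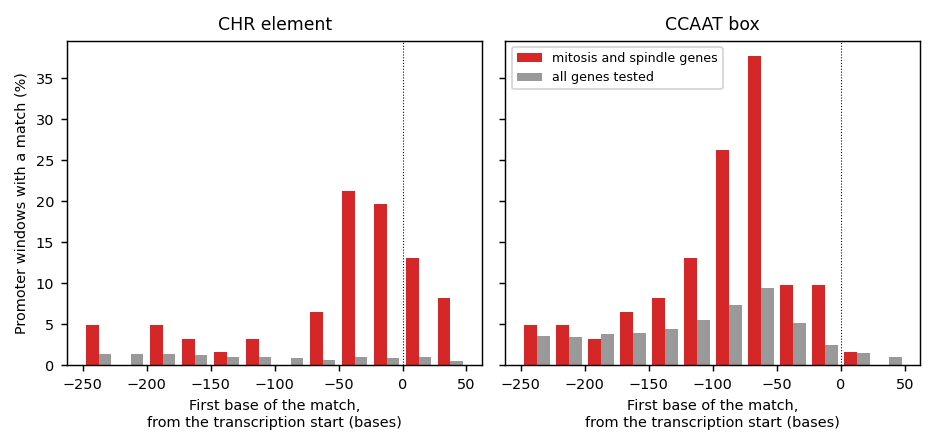
Percent of promoter windows with a CHR match (left) or a CCAAT match (right) by the distance of its first base from the annotated start, in bins of 25 bases, for 61 windows of the mitosis and spindle genes (red) and 13764 windows of tested genes (grey). The members' CHR matches gather from -50 to -1 and their CCAAT matches from -100 to -51.

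Cyclins, CDK1 and the CDC25 phosphatases divided into 6 genes that rose in both populations against double-positive cells and CDC25B. CCNB2 was at 33.4 and 33.3 FPKM in double-negative, 35.9 and 36.3 FPKM in CD201-only and 18.9 and 19.8 FPKM in double-positive cells. This cyclin, a partner of CDK1 on the Golgi, was lowest in both double-positive libraries, and it had the largest change of all members in CD201-only cells (log2 0.87 there and 0.76 in double-negative cells). CDC25A had 17.8 and 17.3 FPKM in double-negative cells, 16.9 and 16.4 in CD201-only cells, and 9.35 and 9.57 in double-positive cells, and this phosphatase, which acts in G1 and S as well as in mitosis, had the largest change of its group in double-negative cells (log2 0.83 ± 0.044 SE, adjusted p = 5.10e-06). Levels of CDC25B were 85.9 and 85.4 FPKM in the double-negative, 119 and 121 in the CD201-only, and 127 and 121 in the double-positive libraries. CDC25B, which starts the activation of CDK1 at the centrosome, thus stood apart: the double-negative libraries were lowest, and CD201-only and double-positive libraries overlapped. It fell by 0.53 in double-negative against double-positive cells (SE 0.030, limma adjusted p = 7.72e-06), and its change in CD201-only cells was -0.05 (95% interval -0.12 to 0.03, adjusted p = 0.241). In CD201-only cells it was called lower under median-ratio scaling, at -0.13 (adjusted p = 0.0139), and after GC correction, at -0.09 (adjusted p = 0.0264).

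CCNB1 was at 60.4 and 60.4 FPKM in double-negative, 63.2 and 64.7 FPKM in CD201-only and 38.1 and 40.03 FPKM in double-positive cells. This is the main mitotic cyclin, and its double-positive libraries were below all others, by 1.55-fold (double-negative) and 1.64-fold (CD201-only). CCNA2 had 34.1 and 36.97 FPKM in double-negative cells, 35.5 and 35.8 in CD201-only cells, and 22.8 and 22.3 in double-positive cells. Cyclin A2, which works with CDK2 in S phase and CDK1 in G2, was 1.58-fold (double-negative) and 1.58-fold (CD201-only) higher with the double-negative and CD201-only libraries interleaved. Levels of CDK1 were 11.7 and 12.8 FPKM in the double-negative, 12.6 and 12.4 in the CD201-only, and 6.603 and 8.55 in the double-positive libraries. The kinase itself was 1.62-fold (double-negative) and 1.65-fold (CD201-only) higher, although the double-positive replicates differed from each other more than for the cyclins. CDC25C was at 3.72 and 4.196 FPKM in double-negative, 3.83 and 4.56 FPKM in CD201-only and 2.56 and 2.52 FPKM in double-positive cells. This phosphatase, held in the cytoplasm by 14-3-3 proteins until mitosis, was low in level and 1.56-fold (double-negative) and 1.65-fold (CD201-only) higher.

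**Figure D3:**
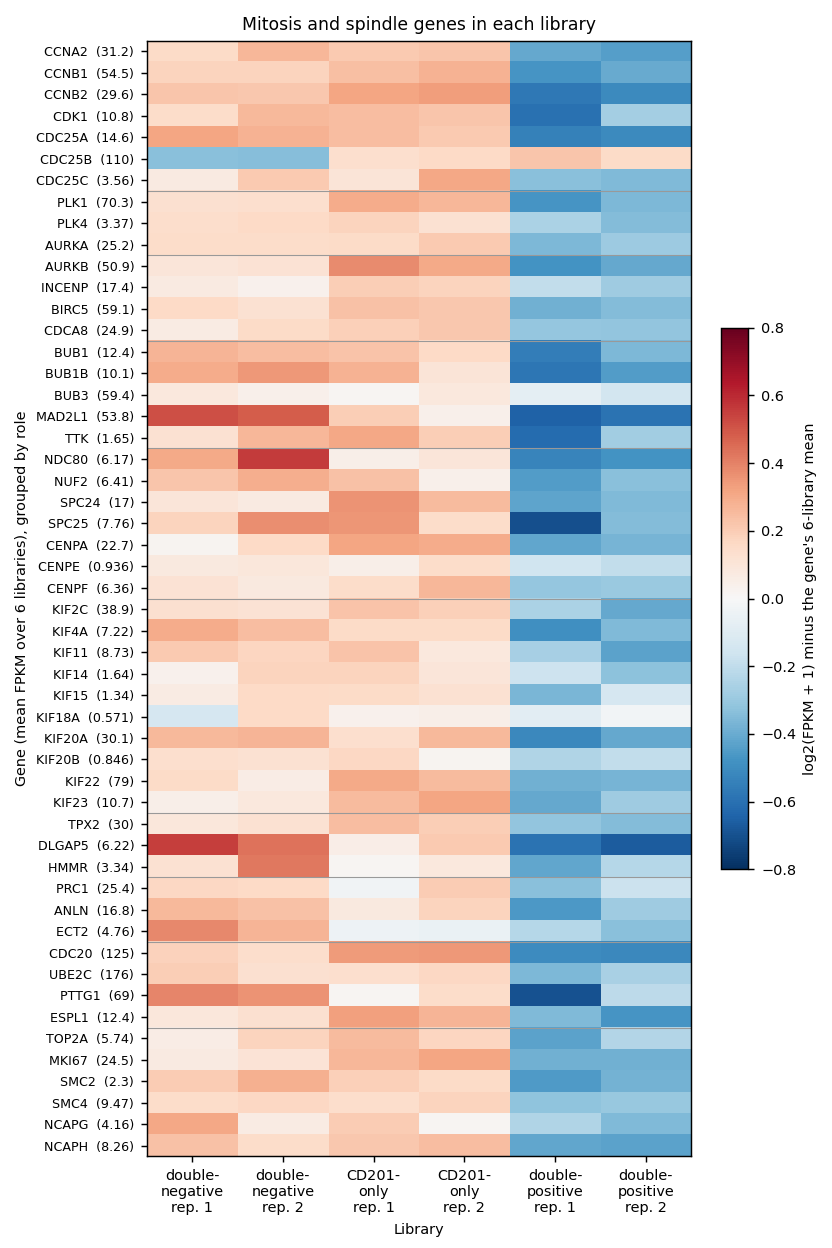
Each row is 1 of the 52 genes, each column 1 library, and the colour is the gene's log2(FPKM + 1) in that library minus its mean over the 6 libraries, with the mean FPKM beside the symbol and lines between roles. The double-positive columns are blue in nearly every row, and CDC25B, MAD2L1, NDC80, DLGAP5 and ECT2 differ most between the double-negative and CD201-only columns.

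All 3 mitotic kinases rose in both populations. PLK1 had 75.4 and 75.8 FPKM in double-negative cells, 84.8 and 82.8 in CD201-only cells, and 49.3 and 53.5 in double-positive cells. PLK1, which acts at centrosomes, kinetochores and the midbody, was the most abundant of them and had the largest change (log2 0.55 ± 0.041 SE, adjusted p = 2.69e-05 in double-negative and log2 0.69 ± 0.041 SE, adjusted p = 1.03e-05 in CD201-only cells). Levels of AURKA were 27.6 and 27.6 FPKM in the double-negative, 27.8 and 28.8 in the CD201-only, and 19.1 and 20.1 in the double-positive libraries. AURKA, the kinase of spindle poles, was 1.41-fold (double-negative) and 1.44-fold (CD201-only) higher, and the double-negative and CD201-only libraries lay nearer to each other than to any double-positive one. PLK4 was at 3.78 and 3.82 FPKM in double-negative, 3.896 and 3.71 FPKM in CD201-only and 2.62 and 2.39 FPKM in double-positive cells. PLK4, which sets the number of centrioles, was 1.51-fold (double-negative) and 1.52-fold (CD201-only) higher than in double-positive cells.

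The 4 subunits of the chromosomal passenger complex, which corrects wrong attachments of microtubules, all rose. AURKB had 53.1 and 53.7 FPKM in double-negative cells, 64.7 and 61.3 in CD201-only cells, and 35.3 and 37.1 in double-positive cells. This kinase subunit had the largest change of the complex (log2 0.55 ± 0.039 SE, adjusted p = 2.17e-05 in double-negative and log2 0.78 ± 0.039 SE, adjusted p = 4.91e-06 in CD201-only cells), and its 3 groups did not overlap. Levels of INCENP were 18.2 and 17.7 FPKM in the double-negative, 19.9 and 19.6 in the CD201-only, and 14.95 and 13.99 in the double-positive libraries. The scaffold INCENP changed least, 1.24-fold (double-negative) and 1.37-fold (CD201-only), still with no overlap. BIRC5 was at 65.01 and 63.5 FPKM in double-negative, 68.6 and 67.8 FPKM in CD201-only and 44.3 and 45.5 FPKM in double-positive cells. CDCA8 had 25.8 and 27.4 FPKM in double-negative cells, 28.3 and 28.7 in CD201-only cells, and 19.6 and 19.6 in double-positive cells. Survivin (BIRC5) and borealin (CDCA8), which bring the complex to centromeres, were 1.43-fold and 1.36-fold higher in double-negative and 1.52-fold and 1.45-fold higher in CD201-only cells. In all 4 subunits the CD201-only libraries were above the double-negative ones, but only AURKB was called in that comparison (adjusted p = 0.00354, limma). INCENP, BIRC5 and CDCA8 were not (adjusted p = 0.0598, 0.0652 and 0.112). Double-negative and CD201-only libraries did not overlap in 32 of the 52 members, so such separation was common. Its share over all tested genes was not computed, so this count is not read as a result about the members.

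Among the 5 genes of the spindle checkpoint, which holds back anaphase, all were called higher, over a wide range. Levels of MAD2L1 were 73.6 and 71.9 FPKM in the double-negative, 58.8 and 52.7 in the CD201-only, and 32.3 and 33.6 in the double-positive libraries. MAD2L1 encodes the protein that binds and inhibits CDC20, and its 3 groups were apart, with double-negative libraries highest (log2 1.12 ± 0.052 SE, adjusted p = 2.85e-06 against double-positive cells, a 2.21-fold difference, and log2 0.74 ± 0.052 SE, adjusted p = 2.48e-05 in CD201-only cells). BUB3 was at 62.9 and 61.1 FPKM in double-negative, 60.1 and 63.04 FPKM in CD201-only and 56.1 and 53.4 FPKM in double-positive cells. BUB3, which also has roles outside mitosis, was only 1.13-fold (double-negative) and 1.12-fold (CD201-only) higher (log2 0.18 ± 0.038 SE, adjusted p = 0.00531 in double-negative and log2 0.17 ± 0.038 SE, adjusted p = 0.00804 in CD201-only cells), the smallest change among the members called higher. Its log2 change was 0.06 in double-negative cells (adjusted p = 0.268) and 0.08 in CD201-only cells (adjusted p = 0.119) under median-ratio scaling. The call in CD201-only cells was also lost under quantile normalization (adjusted p = 0.065, limma), after GC correction (0.243) and without CD201-only replicate 2 (0.054), and in double-negative cells it turned to -0.06 after GC correction (adjusted p = 0.272).

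BUB1B had 12.2 and 12.7 FPKM in double-negative cells, 12.02 and 10.5 in CD201-only cells, and 6.19 and 6.89 in double-positive cells. BUB1B (BubR1), part of the inhibitor of the anaphase-promoting complex, was 1.9-fold (double-negative) and 1.72-fold (CD201-only) higher. Levels of BUB1 were 14.8 and 14.5 FPKM in the double-negative, 14.3 and 13.6 in the CD201-only, and 7.89 and 9.18 in the double-positive libraries. The kinase BUB1, which recruits other checkpoint proteins to kinetochores, was 1.71-fold (double-negative) and 1.63-fold (CD201-only) higher with no overlap with double-positive libraries. TTK was at 1.81 and 2.104 FPKM in double-negative, 2.196 and 1.96 FPKM in CD201-only and 0.685 and 1.13 FPKM in double-positive cells. TTK (MPS1), the kinase that starts checkpoint signalling, had the largest fold of the group in CD201-only cells, 2.29-fold, from low levels at which the double-positive replicates were far apart, and its log2 change was 0.70 (SE 0.130).

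At the kinetochore, all 6 tested genes rose in both populations. NDC80 had 7.52 and 9.198 FPKM in double-negative cells, 6.14 and 6.42 in CD201-only cells, and 3.802 and 3.97 in double-positive cells. NDC80 gives its name to the complex that grips microtubules, and it had the largest change of the kinetochore genes in double-negative cells (log2 0.93 ± 0.091 SE, adjusted p = 1.02e-04). Levels of SPC25 were 8.57 and 9.96 FPKM in the double-negative, 9.801 and 8.37 in the CD201-only, and 4.18 and 5.65 in the double-positive libraries. SPC25 of the same complex had the largest in CD201-only cells (log2 0.78 ± 0.133 SE, adjusted p = 0.00205), with a wide error. NUF2 was at 7.48 and 7.88 FPKM in double-negative, 7.55 and 6.48 FPKM in CD201-only and 4.33 and 4.76 FPKM in double-positive cells. SPC24 had 17.9 and 17.6 FPKM in double-negative cells, 21.7 and 20.1 in CD201-only cells, and 12.2 and 12.8 in double-positive cells. NUF2 and SPC24, which complete the complex, were 1.69-fold and 1.42-fold higher in double-negative and 1.54-fold and 1.67-fold higher in CD201-only cells.

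Levels of CENPA were 22.6 and 24.9 FPKM in the double-negative, 27.8 and 27.5 in the CD201-only, and 16.4 and 16.9 in the double-positive libraries. CENPA, the histone H3 variant of centromeres, was 1.42-fold (double-negative) and 1.66-fold (CD201-only) higher. CENPF was at 6.901 and 6.68 FPKM in double-negative, 7.06 and 7.73 FPKM in CD201-only and 4.88 and 4.93 FPKM in double-positive cells. CENPF, a large protein of the outer kinetochore, was 1.39-fold (double-negative) and 1.51-fold (CD201-only) higher, and its call in double-negative cells was lost after GC correction (adjusted p = 0.0607, limma). CENPE had 1.03 and 1.05 FPKM in double-negative cells, 0.9897 and 1.13 in CD201-only cells, and 0.724 and 0.681 in double-positive cells. CENPE, the motor that carries chromosomes to the spindle equator, was under the minimum for testing, and its double-positive libraries were the lowest, by 1.48-fold (double-negative) and 1.51-fold (CD201-only).

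Of 10 kinesins, 8 were tested and all 8 rose in both populations. Levels of KIF20A were 35.4 and 35.6 FPKM in the double-negative, 32.3 and 35.3 in the CD201-only, and 20.2 and 21.9 in the double-positive libraries. KIF20A, which carries the passenger complex to the midzone, had the largest change in double-negative cells (log2 0.73 ± 0.055 SE, adjusted p = 2.82e-05). KIF22 was at 86.2 and 80.8 FPKM in double-negative, 95.9 and 92.5 FPKM in CD201-only and 59.1 and 59.6 FPKM in double-positive cells. The chromokinesin KIF22 was the most abundant kinesin, and its log2 change in CD201-only cells was 0.66 (SE 0.038), equal at this precision to the 0.66 of KIF20A. KIF4A had 8.89 and 8.55 FPKM in double-negative cells, 7.93 and 7.94 in CD201-only cells, and 4.71 and 5.29 in double-positive cells. Levels of KIF23 were 10.9 and 11.2 FPKM in the double-negative, 12.7 and 13.3 in the CD201-only, and 7.68 and 8.46 in the double-positive libraries. KIF4A, which shortens the midzone with PRC1, and KIF23, a subunit of centralspindlin, were 1.74-fold and 1.37-fold higher in double-negative and 1.59-fold and 1.62-fold higher in CD201-only cells.

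KIF11 was at 10.1 and 9.805 FPKM in double-negative, 10.2 and 9.15 FPKM in CD201-only and 6.97 and 6.14 FPKM in double-positive cells. KIF11 (Eg5), the motor that pushes spindle poles apart, was 1.52-fold (double-negative) and 1.48-fold (CD201-only) higher. KIF2C had 42 and 41.6 FPKM in double-negative cells, 45.2 and 43.8 in CD201-only cells, and 32.01 and 28.7 in double-positive cells. KIF2C (MCAK), which takes microtubules apart at centromeres, was 1.38-fold (double-negative) and 1.47-fold (CD201-only) higher. Levels of KIF14 were 1.68 and 1.97 FPKM in the double-negative, 1.97 and 1.805 in the CD201-only, and 1.34 and 1.09 in the double-positive libraries. KIF15 was at 1.43 and 1.59 FPKM in double-negative, 1.58 and 1.53 FPKM in CD201-only and 0.799 and 1.12 FPKM in double-positive cells. KIF14, of cytokinesis, and KIF15, which can stand in for KIF11, were near the minimum of 1 FPKM, and in double-negative cells their changes of 0.35 and 0.36 were called (adjusted p = 0.0177 and 0.01999). Leaving out 1 library ended that call for KIF14 (without double-negative replicate 2, adjusted p = 0.0949, or double-positive replicate 2, 0.0783) and for KIF15 (without double-negative replicate 2, 0.0928, or double-positive replicate 1, 0.0855). In CD201-only cells the KIF14 call was lost without CD201-only replicate 1 (0.0735) or double-positive replicate 2 (0.0632), and the KIF15 call without CD201-only replicate 1 (0.0713) or 2 (0.0589) or double-positive replicate 1 (0.0717). After GC correction neither was called in double-negative cells (adjusted p = 0.391 and 0.31).

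KIF18A had 0.426 and 0.754 FPKM in double-negative cells, 0.604 and 0.622 in CD201-only cells, and 0.478 and 0.542 in double-positive cells. KIF18A, which damps the swings of chromosomes at the equator, had double-negative and double-positive libraries that overlapped. Levels of KIF20B were 1.01 and 0.999 FPKM in the double-negative, 1.06 and 0.858 in the CD201-only, and 0.55 and 0.598 in the double-positive libraries. KIF20B, a motor of late cytokinesis, had double-positive libraries below all others, by 1.75-fold (double-negative) and 1.67-fold (CD201-only). Neither was tested.

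The 3 spindle assembly factors rose. DLGAP5 was at 9.07 and 8.28 FPKM in double-negative, 6.12 and 6.95 FPKM in CD201-only and 3.56 and 3.32 FPKM in double-positive cells. DLGAP5 (HURP), which bundles kinetochore microtubules, had the largest change of all 52 members in double-negative cells (log2 1.12 ± 0.079 SE, adjusted p = 2.03e-05, 2.52-fold), with 3 groups that did not overlap. In CD201-only cells it was 1.9-fold higher than in double-positive cells. TPX2 had 31.6 and 32.3 FPKM in double-negative cells, 35.3 and 34.1 in CD201-only cells, and 23.6 and 23 in double-positive cells. TPX2, the activator of AURKA, changed least in double-negative cells, 1.37-fold, and was 1.49-fold higher in CD201-only cells. Levels of HMMR were 3.64 and 4.73 FPKM in the double-negative, 3.32 and 3.52 in the CD201-only, and 2.2 and 2.65 in the double-positive libraries. HMMR, a protein of spindle poles that is also a hyaluronan receptor, was 1.73-fold higher in double-negative cells, and its call in CD201-only cells (log2 0.37 ± 0.118 SE, adjusted p = 0.0303) was lost under median-ratio scaling (adjusted p = 0.0559), after GC correction (0.0673), with no filter on low values (0.0841) and with either CD201-only replicate left out (0.0763 and 0.122, without replicate 1 and 2) or double-positive replicate 1 left out (0.143).

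The 3 cytokinesis genes rose as well, more in double-negative than in CD201-only cells by their estimates. ECT2 was at 6.397 and 5.83 FPKM in double-negative, 4.52 and 4.48 FPKM in CD201-only and 3.84 and 3.495 FPKM in double-positive cells. ECT2 activates RhoA at the cleavage furrow, and its CD201-only libraries lay nearer to double-positive than to double-negative ones, at a log2 change of 0.61 in double-negative and 0.24 in CD201-only cells. The call in CD201-only cells (adjusted p = 0.0265) was lost without CD201-only replicate 1 (0.0978) or 2 (0.0841) or double-positive replicate 2 (0.116), under median-ratio scaling (0.0885), after GC correction (0.126) and with no filter on low values (0.0556). ANLN had 19.9 and 19.5 FPKM in double-negative cells, 17.5 and 18.8 in CD201-only cells, and 11.7 and 13.4 in double-positive cells. Anillin, the scaffold of the contractile ring, was 1.57-fold (double-negative) and 1.45-fold (CD201-only) higher. Levels of PRC1 were 28.3 and 28.2 FPKM in the double-negative, 24.7 and 29.1 in the CD201-only, and 19.7 and 22.3 in the double-positive libraries. PRC1, which links the microtubules of the midzone, was 1.35-fold (double-negative) and 1.28-fold (CD201-only) higher, and without double-positive replicate 1 the CD201-only call was lost (adjusted p = 0.0585).

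The 4 anaphase genes rose in both populations, and the highest levels of the list were among them. UBE2C was at 199 and 190.0 FPKM in double-negative, 191 and 195 FPKM in CD201-only and 135 and 145 FPKM in double-positive cells. UBE2C, the ubiquitin-conjugating enzyme of the anaphase-promoting complex, had the highest mean of the 52 members and was 1.39-fold (double-negative) and 1.38-fold (CD201-only) higher. CDC20 had 138 and 134 FPKM in double-negative cells, 154 and 155 in CD201-only cells, and 85.5 and 84.6 in double-positive cells. CDC20, the activator of that complex, came next and had the smallest errors of the members (log2 0.67 ± 0.025 SE, adjusted p = 1.15e-06 in double-negative and log2 0.85 ± 0.025 SE, adjusted p = 5.99e-07 in CD201-only cells). Levels of PTTG1 were 87.8 and 86.1 FPKM in the double-negative, 67.6 and 74.03 in the CD201-only, and 40.8 and 57.7 in the double-positive libraries. PTTG1, the securin that the complex destroys, had the largest change of the group in double-negative cells (log2 0.83 ± 0.138 SE, adjusted p = 0.001504), and its double-positive replicates were far apart. Its CD201-only call (adjusted p = 0.0134) was lost without CD201-only replicate 2 (0.0737) and with no filter on low values (0.056). ESPL1 was at 12.97 and 13.3 FPKM in double-negative, 15.5 and 14.8 FPKM in CD201-only and 9.23 and 8.46 FPKM in double-positive cells. Separase (ESPL1), the protease that cuts cohesin, was 1.49-fold (double-negative) and 1.71-fold (CD201-only) higher.

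The 6 genes of chromosome structure rose in both populations. MKI67 had 25.3 and 26.04 FPKM in double-negative cells, 29.1 and 30.2 in CD201-only cells, and 18.1 and 18.2 in double-positive cells. Ki-67, the protein that coats mitotic chromosomes and a common marker of proliferation, had the largest change of the group in CD201-only cells (log2 0.68 ± 0.038 SE, adjusted p = 8.05e-06, against log2 0.48 ± 0.038 SE, adjusted p = 3.67e-05 in double-negative cells). Levels of SMC2 were 2.71 and 2.94 FPKM in the double-negative, 2.69 and 2.59 in the CD201-only, and 1.36 and 1.48 in the double-positive libraries. SMC2, a core subunit of condensin, had the largest in double-negative cells, 1.99-fold (log2 0.66 ± 0.080 SE, adjusted p = 2.98e-04). SMC4 was at 10.4 and 10.6 FPKM in double-negative, 10.4 and 10.7 FPKM in CD201-only and 7.29 and 7.38 FPKM in double-positive cells. Its partner SMC4 was 1.43-fold (double-negative) and 1.44-fold (CD201-only) higher. NCAPH had 9.69 and 9.04 FPKM in double-negative cells, 9.51 and 9.77 in CD201-only cells, and 5.81 and 5.74 in double-positive cells. Levels of NCAPG were 5.31 and 4.33 FPKM in the double-negative, 4.86 and 4.16 in the CD201-only, and 3.31 and 2.998 in the double-positive libraries. These subunits of condensin I were 1.62-fold and 1.53-fold higher in double-negative and 1.67-fold and 1.43-fold higher in CD201-only cells, and the NCAPG call in CD201-only cells was lost without CD201-only replicate 1 (adjusted p = 0.08897) or double-positive replicate 2 (0.0706). In double-negative cells the NCAPG call was lost after GC correction (adjusted p = 0.0943, limma). TOP2A was at 5.94 and 6.502 FPKM in double-negative, 6.902 and 6.49 FPKM in CD201-only and 3.94 and 4.64 FPKM in double-positive cells. TOP2A, which untangles sister DNA, was 1.45-fold (double-negative) and 1.56-fold (CD201-only) higher.

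Between double-negative and CD201-only cells, 15 of the 49 tested members were called. Of these, 4 were higher in double-negative cells, where 21.5% of all tested genes were, and 11 were lower, where 16.5% were. For the other 34 the test was not passed, which does not show that they were equal. The median log2 change of the 52 members was -0.03, against 0.04 over all tested genes, with an SD of 0.17, against 0.35. The 4 higher genes were MAD2L1 (log2 0.38 ± 0.052 SE, adjusted p = 0.00144), ECT2 (log2 0.37 ± 0.073 SE, adjusted p = 0.00707), DLGAP5 (log2 0.36 ± 0.079 SE, adjusted p = 0.01104) and NDC80 (log2 0.36 ± 0.091 SE, adjusted p = 0.0201), which act in the checkpoint, the cleavage furrow, the spindle and the kinetochore. In all 4 both double-negative libraries were above both CD201-only libraries, but these genes were picked by their calls, so this adds no support. CDC25B was the lowest of the 11 (log2 -0.48 ± 0.030 SE, adjusted p = 3.76e-05), followed by AURKB (log2 -0.23 ± 0.039 SE, adjusted p = 0.00354), SPC24 (log2 -0.22 ± 0.051 SE, adjusted p = 0.0131), KIF23 (log2 -0.22 ± 0.059 SE, adjusted p = 0.0246) and CENPA (log2 -0.21 ± 0.051 SE, adjusted p = 0.0159). MKI67, ESPL1, CDC20, KIF22, PLK1 and TPX2 were lower by log2 changes of -0.20, -0.19, -0.18, -0.17, -0.15 and -0.12. Among members not called, the 95% interval of CCNA2 was -0.11 to 0.10, that of CDK1 -0.28 to 0.21 and that of PTTG1 -0.03 to 0.62. Only MAD2L1, CDC25B, AURKB and CDC20 were called under each of the 14 alternatives, and leaving out 1 library left 6 to 18 members called: 6 without double-negative replicate 1 or CD201-only replicate 1, 8 without double-negative replicate 2, 9 without CD201-only replicate 2, and 18 without either double-positive library.

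The direction went with the GC content of the transcript. The 4 higher members had 38.0% to 40.1% GC and the 11 lower ones 42.3% to 59.3%, with a median of 38.9% and 55.6%. Over 49 members Pearson's r between GC content and log2 change was -0.59 (Spearman's rho -0.59), and over 11949 tested genes it was -0.33 (rho -0.42). Genes are not independent replicates and share the same 6 libraries, so these are descriptions. After a correction for GC content, chosen after seeing the data, MAD2L1 was the 1 member still higher (log2 0.23, adjusted p = 0.00928, limma) and 15 were lower. NDC80, DLGAP5 and ECT2 were then at 0.21 each, with adjusted p of 0.118, 0.113 and 0.0768, and PLK1, KIF22 and ESPL1 lost their calls too. CDC25B kept a change of -0.40. Against double-positive cells, members under 42% GC had a median log2 change of 0.60 in double-negative cells, against 0.24 over all genes in that range, and those of 50% GC and over had 0.48, against -0.01. In CD201-only cells the same medians were 0.50 against 0.09, and 0.66 against 0.06.

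**Figure D4:**
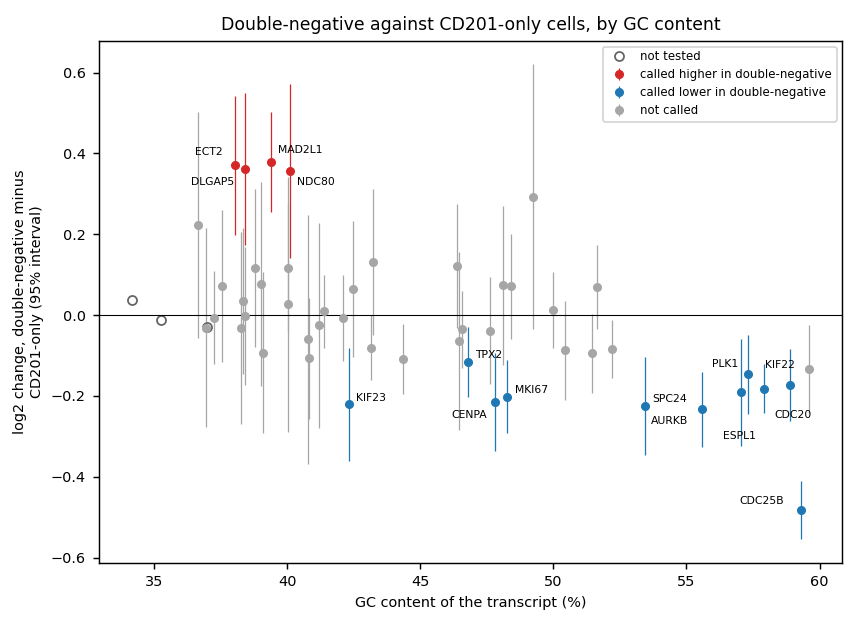
Log2 change in double-negative minus CD201-only cells, with its 95% interval, against the GC content of 1 transcript per gene for the 52 members; red and blue points were called higher and lower in double-negative cells, grey ones were not called, and open ones were not tested. The 4 red points lie between 38.0% and 40.1% GC, and CDC25B, at 59.3% GC, is the lowest point.

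Other cell cycle genes were set beside the members, from lists that share no gene with them. Their counts against double-positive cells stand beside 42.1% of all tested genes higher and 24.5% lower in double-negative cells. In CD201-only cells these shares were 35.8% higher and 22.9% lower. All 26 DNA replication genes were higher in double-negative and in CD201-only against double-positive cells, with a median log2 change of 0.68 in both. MCM6, a subunit of the replicative helicase, was at 33.5 and 33.3 FPKM in double-negative, 23.01 and 26.4 FPKM in CD201-only and 14.2 and 17.4 FPKM in double-positive cells (log2 1.04, adjusted p = 7.95e-05 in double-negative cells). CDC6, which loads that helicase, was at 21.2 and 20.7 FPKM in double-negative, 17.2 and 18.7 FPKM in CD201-only and 8.87 and 10.7 FPKM in double-positive cells (log2 1.03, adjusted p = 3.96e-05). Both were lowest in double-positive libraries.

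Of 29 other kinetochore and centromere genes, 24 were higher and 1 lower in double-negative cells (median 0.43), and 24 were higher and 0 lower in CD201-only cells (median 0.37). In double-negative cells the largest changes were those of CENPK, of the inner kinetochore (0.89), and MIS18A, which helps to place CENPA (0.81). Cohesin, shugoshin and other condensin genes had 14 of 16 higher in double-negative and 12 of 16 in CD201-only cells, 0 lower in either, with medians of 0.45 (double-negative) and 0.34 (CD201-only). NCAPG2 of condensin II (0.90) and SGO1, the protector of centromeric cohesin (0.83), led in double-negative cells. Of 46 other spindle, centrosome and cytokinesis genes, 34 rose and 2 fell in double-negative cells (median 0.38) and 33 rose and 1 fell in CD201-only cells (median 0.36). In double-negative cells SPAG5, a partner of kinetochore fibres (0.76), and CENPJ, a centriole protein (0.74), led.

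Of the subunits and cofactors of the anaphase-promoting complex, 8 of 17 rose and 2 fell in double-negative cells (median 0.17), and 6 rose and 0 fell in CD201-only cells (median 0.10). Over all tested genes 42.1% rose and 24.5% fell in double-negative cells, and 35.8% rose and 22.9% fell in CD201-only cells, so the shares of this list that rose were near those of all genes. FBXO5 (EMI1), an inhibitor of the complex, was at 0.63, and UBE2S, the enzyme that lengthens its ubiquitin chains, at 0.53. Among 22 transcription factors of cell cycle genes, 11 rose and 3 fell in double-negative and 10 rose and 3 fell in CD201-only cells (medians 0.22 in double-negative and 0.14 in CD201-only cells), also near the 42.1% and 35.8% of all genes that rose in double-negative and CD201-only cells. MYBL2, the MYB subunit of the complex that binds CHR elements, was at 112 and 114 FPKM in double-negative, 135 and 133 FPKM in CD201-only and 58.6 and 55.3 FPKM in double-positive cells. It rose in both populations (log2 0.98, adjusted p = 7.65e-07, in double-negative and 1.22, adjusted p = 4.28e-07, in CD201-only cells, limma), and RBBP4, of the MuvB core, was at 0.68 in double-negative cells. The LIN genes of this list, other MuvB subunits, did not all rise in double-negative cells. LIN54 was called higher (0.41) and LIN37 lower (-0.30, adjusted p = 0.0205, limma). LIN52 was not called (-0.12), and LIN9 was under the minimum of 1 FPKM and not tested.

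The G1 cyclins and kinases did not move one way: 2 of 6 rose and 2 fell in double-negative cells (median 0.02), and 3 rose and 2 fell in CD201-only cells (median 0.13). Over all tested genes 42.1% rose and 24.5% fell in double-negative cells, and 35.8% rose and 22.9% fell in CD201-only cells. A list of 6 genes is too short to set its shares apart from these. CCND1, cyclin D1, was at 119.6 and 121 FPKM in double-negative, 157 and 153 FPKM in CD201-only and 291 and 287 FPKM in double-positive cells. It was highest in double-positive libraries, the reverse of the mitotic cyclins (-1.26, adjusted p = 7.81e-08, in double-negative, and -0.89 in CD201-only cells). CCND3 was likewise lower in double-negative cells (-0.60, adjusted p = 6.23e-06).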

How the data were processed

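Poly-A RNA of 3 sorted groups with 2 libraries each was sequenced from BJ cells. The authors deposited 1 table of FPKM values, which the submitters' processing notes credit to STAR and Cuffnorm on hg19 (GRCh37). Versions, annotation and the scaling by Cuffnorm: not given in the sources used here. Groups were taken from the labels. The deposited values were tested as log2(FPKM + 1) for 12210 genes whose mean over the 6 libraries reached 1 FPKM. One fit with a coefficient per group was made in limma 3.58.1 (R 4.3.3) with a variance trend and Benjamini-Hochberg adjustment over all tested genes, two-sided, and genes under 0.05 were called. It leaves 3 residual degrees of freedom. It was also run on simulated data with equal noise in all genes and far fewer changed genes than were called here. That run does not show how the fit performs on these data. The members and lists were chosen with earlier results of these data known, so no p-value was adjusted over a list and no set test was made. Within each role, the member with the largest called change in each direction and every member not called were described with values in each library, and from each other list the 2 called genes with the largest change in double-negative cells were named. ANPEP and PROCR were named to check the sort. Alternatives were a pseudocount of 0.1, no filter, median-ratio scaling, quantile normalization, no variance trend, a fit of only the libraries compared, a replicate block, each library left out, and a GC correction chosen after seeing the data. GC content came from 1 GENCODE 29 transcript per gene, with a value for 52 members and for 11949 of the genes tested. Promoters came from RefSeq (GRCh38.p14), another build than the authors', and were used for letters only. Sums, motif searches and plots used pandas 2.3.3, matplotlib 3.10.9 and numpy 2.4.6 under Python 3.11.15. The files used give no counts, so the depth of each value is unknown beyond the relative depth.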

Additional observations from a re-analysis of the deposited data

How the results depend on the processing

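Against double-positive cells, 43 of the 48 members called higher in double-negative cells and 40 of 48 in CD201-only cells were called under each of the 14 alternatives, as was the fall of CDC25B in double-negative cells. In each comparison, the share of all called genes that kept their calls was not computed, so these counts describe the members only. Some alternatives, such as leaving out a library of the group not compared, left the log2 changes as they were. The median log2 change of the 49 tested members in double-negative minus double-positive cells was 0.54, and it was 0.60 with a pseudocount of 0.1, 0.43 under median-ratio scaling, 0.49 under quantile normalization, 0.38 after GC correction and 0.50 to 0.55 with 1 library left out. In CD201-only cells it was 0.58, and it was 0.66, 0.51 and 0.48 with that pseudocount, median-ratio scaling and GC correction, and 0.55 to 0.62 with 1 library left out. Between double-negative and CD201-only cells it was -0.03, and it was -0.0566 under median-ratio scaling, -0.068 under quantile normalization, -0.11 after GC correction and -0.0675 to 0.0034 with 1 library left out, the highest without double-negative replicate 1. In that comparison 4632 genes and 15 members were called, and with 1 library left out 2861 to 4872 genes and 6 to 18 members, where fewer libraries were fitted. BUB3 in double-negative minus double-positive cells turned to -0.0625 after GC correction; the cause was not tested. GC correction split the calls of all genes into 3641 higher and 3724 lower in double-negative, and 3333 and 3486 in CD201-only cells. A replicate block left 49, 48 and 14 members called, so it ended 1 call, that of TPX2 in double-negative minus CD201-only cells. Differences between replicates 1 and 2 correlated at 0.08, -0.07 and 0.12 between pairs of groups, so the numbers were not taken as pairs. Of 294 counts of the other lists, 263 stayed within 1.5 times, and the 31 that did not were all in double-negative minus CD201-only cells, where no list count is given. FPKM gives no read numbers, so what depth limits cannot be given per gene.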
